A study of Mus musculus with 2 samples.

Results

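Binding of MAFK near the genes of the core pluripotency factors was described in mouse embryonic stem cells. The 8 genes were Pou5f1, Sox2, Sall4, Lin28a, Utf1, Dppa2, Dppa4 and Dppa5a. Their regions were the entries of the authors' optimal list whose summit, the point of highest signal in a region, lay within 50 kb of any annotated transcription start site (TSS) of the genes. This gave 16 of the 16865 regions of the list, for 8 of 21938 protein-coding genes. The data are chromatin immunoprecipitation with sequencing (ChIP-seq) with an antibody to MAFK in ES-E14, an embryonic stem cell line of strain 129/Ola that the labels give as male. A single group of 2 biological replicates was profiled, with no second condition, and the control experiment named in the labels was not analysed here. Both replicates carry the same biosample, so differences between them may be technical in part. The read depth is unknown, since the files hold regions and not reads, and for the same reason the cell type could not be checked against marker genes.

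MAFK is a small MAF protein that has a basic leucine zipper to bind DNA and no activation domain of its own. It pairs with itself or with a CNC-family protein, NRF2 and BACH1 among them. Its pairs with CNC-family proteins bind sequences that join a MAF half-site to an AP-1-like half-site. The pluripotency factors keep embryonic stem cells in a self-renewing, undifferentiated state. Pou5f1 encodes the POU homeodomain factor OCT4, which binds many enhancers side by side with the HMG-box factor SOX2.

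The sequences around the summits are printed for the region of highest signal of each gene and for the regions that hold the NFE2-type composite element, because they show where MAF-type letters stand and where they do not. The region 210 bp upstream of Dppa2 is the strongest for both Dppa2 and Dppa4. Each line holds the 101 bases centred on a summit, on the plus strand of mm10. Distances are from the nearest TSS of the gene. For the regions of Sall4 at 13037 bp and of Dppa2 at 37670 bp downstream this is also an internal start. Capitals mark exact matches, on either strand, to the composite element, the antioxidant response element (ARE) core TGACNNNGC or TGAGNNNGC, the MAF core TGCTGA, or the AP-1 site TGACTCA or TGAGTCA. The composite element contains an ARE core, a MAF core and an AP-1 site, so its matches count under all 4.
Pou5f1, 558 bp upstream, chr17:35505410-35505510: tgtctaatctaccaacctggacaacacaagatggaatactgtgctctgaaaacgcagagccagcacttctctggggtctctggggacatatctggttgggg
Sox2, 3701 bp downstream, chr3:34654056-34654156: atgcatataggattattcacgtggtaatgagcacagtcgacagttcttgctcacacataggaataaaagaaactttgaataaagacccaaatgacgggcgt
Sall4, 13037 bp downstream, chr2:168742856-168742956: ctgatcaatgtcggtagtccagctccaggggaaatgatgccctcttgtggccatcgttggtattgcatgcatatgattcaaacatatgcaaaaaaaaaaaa
Sall4, 11257 bp upstream, chr2:168779150-168779250: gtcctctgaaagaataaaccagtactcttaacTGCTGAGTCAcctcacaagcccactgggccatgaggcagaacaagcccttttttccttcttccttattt
Lin28a, 708 bp upstream of an internal start, chr4:134013044-134013144: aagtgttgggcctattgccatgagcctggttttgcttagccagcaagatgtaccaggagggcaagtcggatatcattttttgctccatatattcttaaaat
Utf1, 37229 bp downstream, chr7:139980968-139981068: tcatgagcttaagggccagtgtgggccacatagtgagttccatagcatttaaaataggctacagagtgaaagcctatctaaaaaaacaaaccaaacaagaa
Dppa2, 210 bp upstream, chr16:48303648-48303748: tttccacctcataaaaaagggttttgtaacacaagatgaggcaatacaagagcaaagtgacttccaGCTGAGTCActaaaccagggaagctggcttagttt
Dppa2, 37670 bp downstream, chr16:48348097-48348197: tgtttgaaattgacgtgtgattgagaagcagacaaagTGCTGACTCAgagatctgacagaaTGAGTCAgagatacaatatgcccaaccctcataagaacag
Dppa5a, 1307 bp upstream, chr9:78369434-78369534: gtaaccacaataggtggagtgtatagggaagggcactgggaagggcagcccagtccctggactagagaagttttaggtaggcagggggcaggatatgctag

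Of these 9 windows, 3 hold capitals. The windows of Sall4 at 11257 bp upstream and of Dppa2 at 37670 bp downstream carry the full composite element, from -18 to -9 and from -13 to -4 relative to the summit. The Dppa2 window also has a separate AP-1 site from 11 to 17. The window at 210 bp upstream of Dppa2 has GCTGAGTCA from 16 to 24, an ARE core with an AP-1 site inside it, and is 1 mismatch short of a composite element. The windows of Pou5f1, Sox2, Lin28a, Utf1, Dppa5a and Sall4 at 13037 bp downstream hold no such match.

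All 8 genes had a region within 50 kb, against 59.3% of protein-coding genes. Within 10 kb, 5 genes had one, against 26.9% of protein-coding genes, and Sall4, Utf1 and Dppa4 had none. Sox2, Sall4, Dppa2 and Dppa4 had 3 or more regions within 50 kb, against 17.1% of protein-coding genes. Dppa2 and Dppa4 are neighbours and share 3 of their regions, so their counts are not independent. Relative to the nearest TSS of their gene, 9 summits lay upstream and 7 downstream, and some of either kind lay inside the gene. The nearest protein-coding TSS belonged to the gene itself for 14 of them, and to Atp9a and Adam8 for the other two. A nearby region does not show that a gene is a target, and these shares are not adjusted for how many start sites each gene has.

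**Figure D1:**
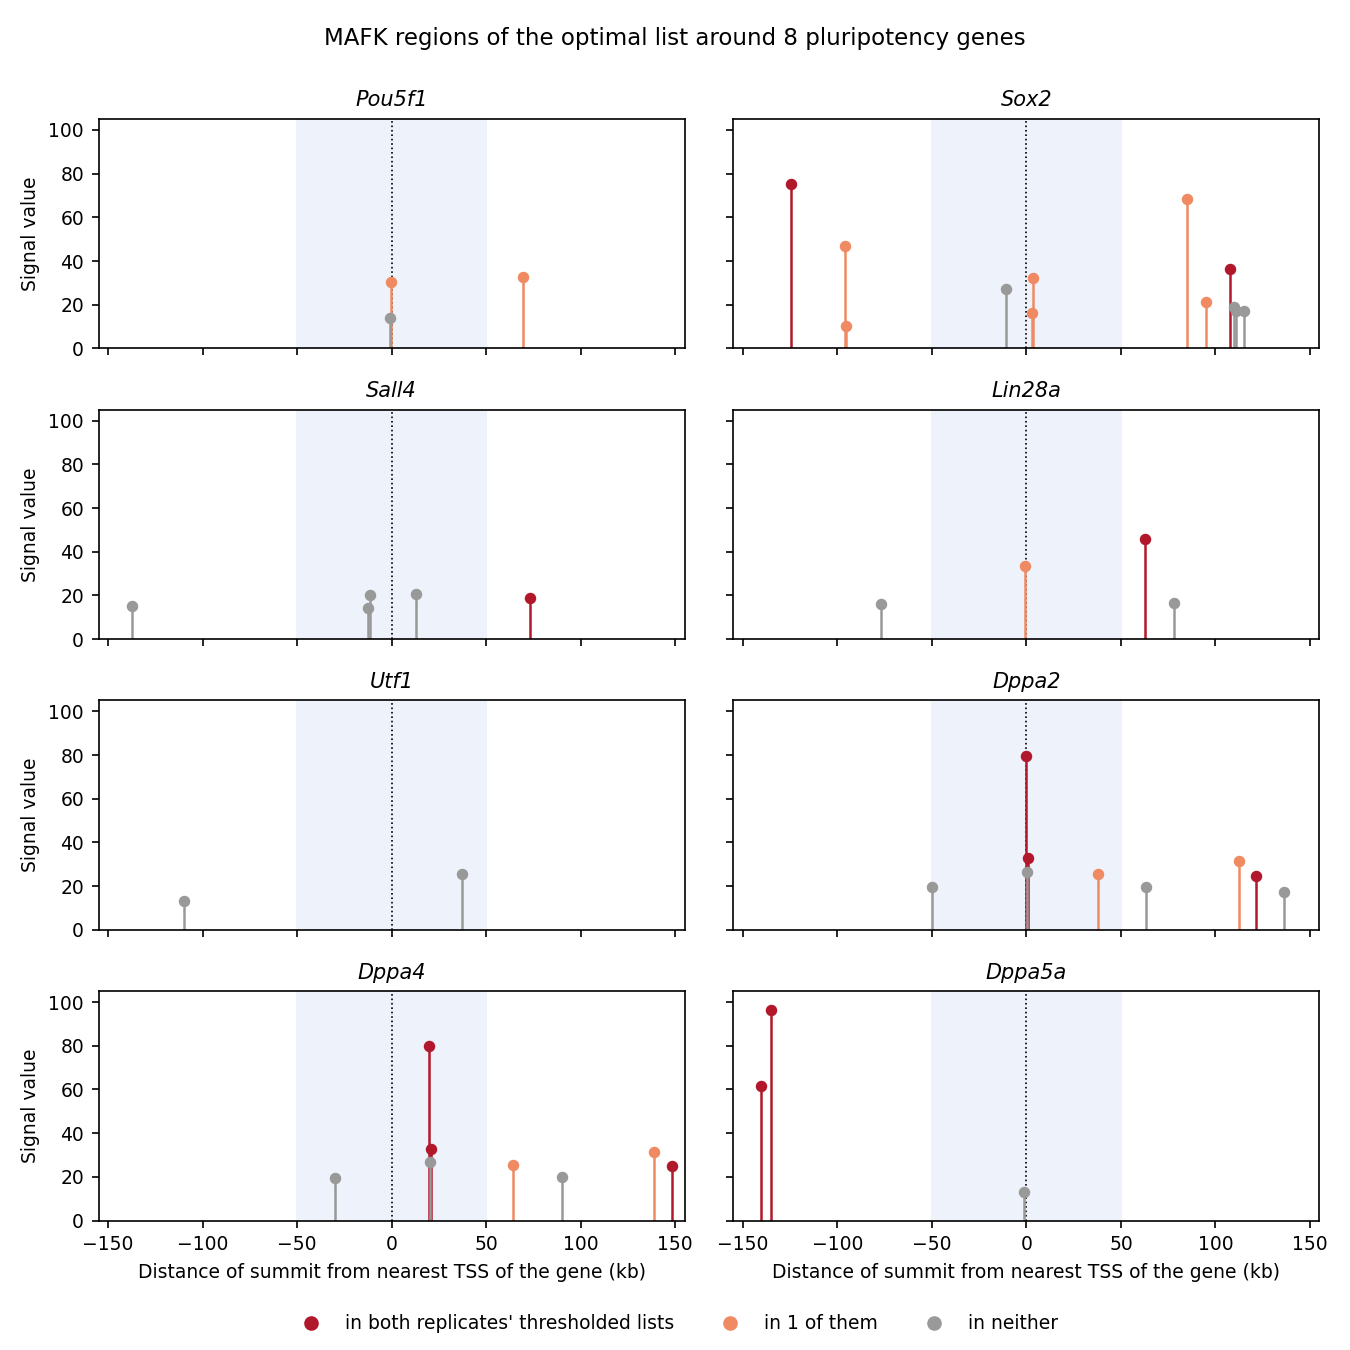
Map of optimal regions around each gene: the horizontal axis is the distance of the summit from the nearest TSS of the gene in kb, the vertical axis is the signal (no stated unit), the shaded band marks 50 kb to either side, and colours show whether a region is in both, 1 or neither of the replicates' thresholded lists. Sox2 has 3 regions inside the band and 9 outside it, whereas Utf1 has 1 inside and 1 outside.

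The signal of a region is a score from the authors' list with no stated scale, used here only to describe and rank. In a bulk population, the share of cells bound and the strength of binding in each cannot be told apart. The 16 regions had a median signal of 25.6, against 27.9 over the whole optimal list, whose lower and upper quartiles were 19.1 and 48.4. Only 1 region lay above the upper quartile and 4 lay below the lower quartile. Over the genes, the strongest region within 50 kb had a median signal of 31.1, against 40.8 over all protein-coding genes with a region within 50 kb. Dppa2 and Dppa4 share their strongest region, which counts for both in this median. The signal near these genes was thus mostly in the middle or lower part of the list.

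**Figure D2:**
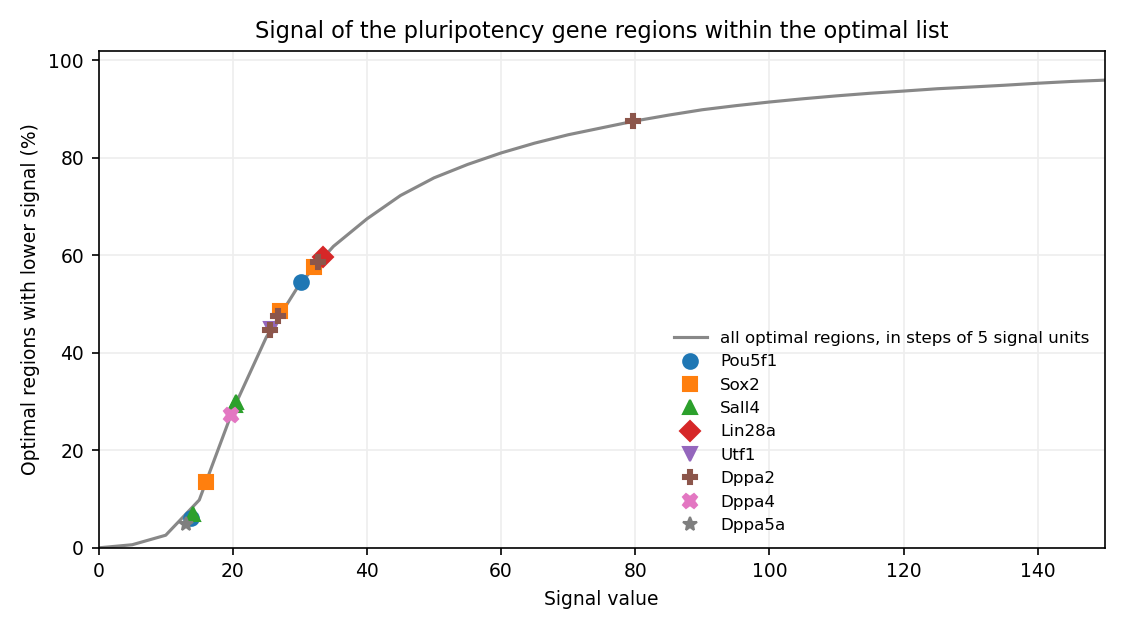
Signal of the 16 regions (horizontal axis, no stated unit) against the percent of the 16865 optimal regions with a lower signal (vertical axis), with a grey line for the whole list up to a signal of 150. The Dppa2 region at 79.7 has 87.5% of the list below it, and all others lie at 33.4 or less.

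Pou5f1 had 2 regions, both upstream. The region 558 bp upstream had a pooled signal of 30.2, with 7.83 in replicate 1 and 19.3 in replicate 2 by their relaxed lists. Relaxed lists keep weak regions together with background, and each replicate's list was processed on its own, so values of both are set side by side and not scaled to each other. Replicate 2 listed this region past the threshold, at 18.3, and replicate 1 did not. The second region, 1141 bp upstream at chr17:35504729-35505024, had a pooled signal of 13.8, with 10.6 in replicate 1 and 6.18 in replicate 2. It was in neither thresholded list and not in the conservative list. Its summit in replicate 1 lay at 64 bp from the pooled summit. The 2 regions of Pou5f1 were each higher in a different replicate.

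Sox2 had 3 regions, all inside introns of Sox2ot, a non-coding transcript that spans the gene. The region 3701 bp downstream of the Sox2 TSS had a pooled signal of 32.0, with 14.8 in replicate 1 and 16.8 in replicate 2. The region 3057 bp downstream, at chr3:34653314-34653609, had a pooled signal of 16.1, with 8.09 in replicate 1 and 4.61 in replicate 2. The region 10984 bp upstream, at chr3:34639273-34639568, had a pooled signal of 27.1, with 12.2 in replicate 1 and 12.1 in replicate 2, and lay 917 bp past a TSS of Sox2ot. The strongest and the upstream region each had similar values in both replicates, and the region 3057 bp downstream was lower than either in both. The 101-base windows of these 3 regions held 4 to 7 CpG dinucleotides, against 0 to 3 in each of the other 13 windows. Within 1 kb of the Sox2 TSS no optimal region was found, and the highest relaxed signal there was 4.60 in replicate 1 and 6.55 in replicate 2.

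Sall4 encodes a zinc finger factor that works with OCT4 in embryonic stem cells. It had 3 regions, none within 10 kb. The region 13037 bp downstream had a pooled signal of 20.5, with 15.0 in replicate 1 and 6.38 in replicate 2, and lay 497 bp upstream of a TSS of Atp9a, a phospholipid flippase gene. The region 11257 bp upstream had a pooled signal of 20.4, with 5.18 in replicate 1 and 14.5 in replicate 2. The last region, 12399 bp upstream at chr2:168780194-168780489, had a pooled signal of 14.1, with 8.32 in replicate 1 and 6.75 in replicate 2. The first of these was higher in replicate 1 and the second in replicate 2. For the first, the summit of replicate 2 lay at -171 bp from the pooled summit and that of replicate 1 at 2 bp, so the replicates do not mark the same site there. For the last, the summit of replicate 2 lay at -130 bp and that of replicate 1 at 0 bp. All 3 were in neither thresholded list, and the first and second were absent from the conservative list too. At 189 bp downstream of a Sall4 TSS the pooled relaxed list had a region with a signal of 19.5 that is not in the optimal list but is in the list of the second processing run, at chr2:168767606-168767901. The highest relaxed signal within 1 kb of a Sall4 TSS was 4.90 in replicate 1, at -78 bp, and 12.3 in replicate 2, at 49 bp, so the replicates placed it differently.

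Utf1, a chromatin-associated factor of undifferentiated embryonic cells, had 1 region at 37229 bp downstream. It had a pooled signal of 25.6, with 14.6 in replicate 1 and 12.5 in replicate 2. It lay in an intron of Adam8, a metalloprotease gene, 650 bp upstream of a TSS of that gene. Within 1 kb of the Utf1 TSS the pooled relaxed list had no region, and the highest relaxed signal was 2.45 in replicate 1 and 5.71 in replicate 2.

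Lin28a encodes an RNA-binding protein that blocks the maturation of let-7 microRNAs. Its 1 region lay in an intron, 708 bp upstream of an internal TSS of the gene. It had a pooled signal of 33.4, with 12.7 in replicate 1 and 21.1 in replicate 2. Replicate 2 listed it past the threshold, at 23.2, and replicate 1 did not. Dppa5a encodes a KH-domain RNA-binding protein of pluripotent cells. Its 1 region, 1307 bp upstream, had the lowest pooled signal of the 16, at 13.1, with 6.66 in replicate 1 and no overlapping region in the relaxed list of replicate 2. This region was in neither thresholded list and not in the conservative list. Its summit in replicate 1 lay at -115 bp from the pooled summit. The conservative list held another region 8149 bp downstream of Dppa5a, at chr9:78359880-78360175, with a signal of 14.2. That region overlaps no optimal region.

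Dppa2 and Dppa4 encode SAP-domain proteins that act as a pair on chromatin. Dppa2 had 3 regions within 1 kb of a TSS, and 25 protein-coding genes, 0.114% of all, had 3 or more. This count was singled out after its values were seen. The region 210 bp upstream had a pooled signal of 79.7, with 32.2 in replicate 1 and 47.2 in replicate 2. It was in both thresholded lists, at 33.4 in replicate 1 and 47.2 in replicate 2, and the next of the 16 had a pooled signal of 33.4. It was also the 1 region of the 16 not 296 bp wide, at 75 bp.

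The other Dppa2 regions near the TSS lay inside the gene. The region 317 bp downstream, at chr16:48304077-48304372, had a pooled signal of 26.7, with 13.9 in replicate 1 and 18.8 in replicate 2. The region 713 bp downstream, at chr16:48304473-48304768, had a pooled signal of 32.7, with 13.9 in replicate 1 and 25.8 in replicate 2. Both values of replicate 1 come from the same relaxed region, which overlaps both regions and has its summit between theirs. Only the strongest overlapping relaxed region was taken, so a weaker one nearer either summit would not be seen here. The region 713 bp downstream was in both thresholded lists, at 12.5 in replicate 1 and 32.4 in replicate 2, and the region 317 bp downstream was in neither. The second run had a region at 210 bp upstream and at 713 bp downstream, and none overlapping the one at 317 bp.

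Farther away, the Dppa2 region 37670 bp downstream had a pooled signal of 25.6, with 12.9 in replicate 1 and 13.1 in replicate 2. The region 29857 bp upstream of Dppa4, at chr16:48253728-48254023, had a pooled signal of 19.7, with 9.94 in replicate 1 and 9.41 in replicate 2. It is 50032 bp from the nearest Dppa2 TSS, just outside the limit, and counts for Dppa4 alone. Each of these 2 regions had similar values in both replicates. Dppa4 itself had no region nearer than the shared one at 19911 bp, and within 1 kb of its TSSs the highest relaxed signal was 2.11 in replicate 1 and 3.97 in replicate 2.

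**Figure D3:**
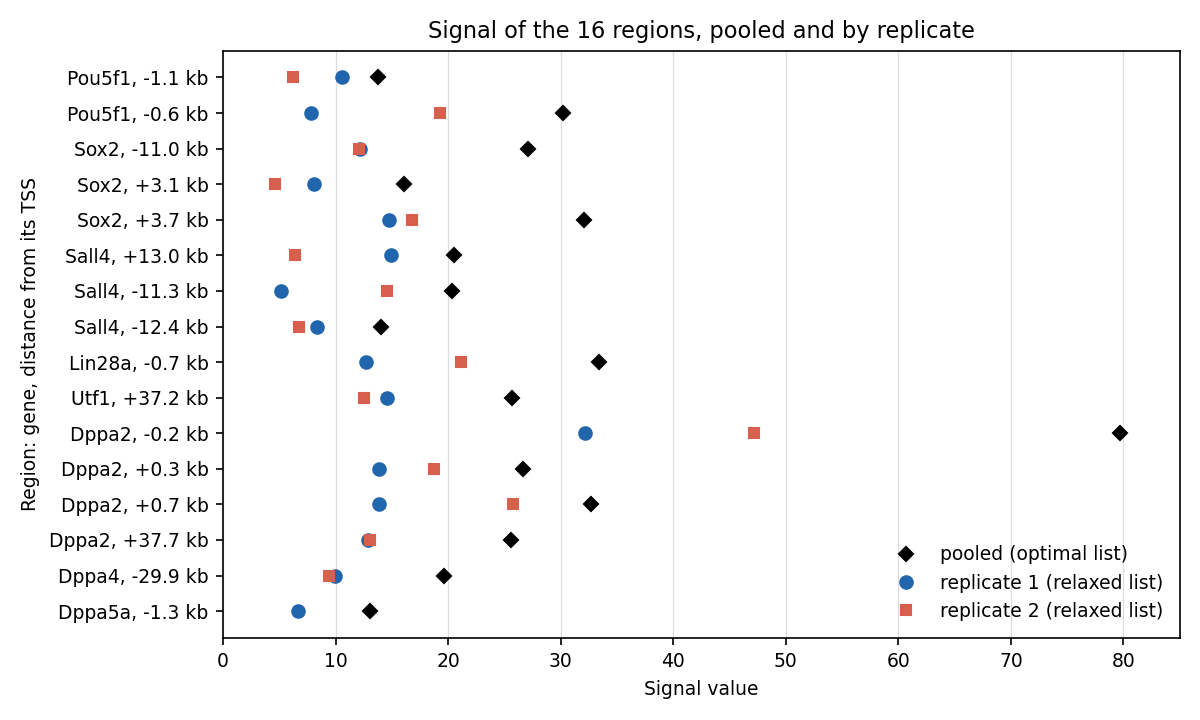
Signal (horizontal axis, no stated unit) of each of the 16 regions (rows), as diamonds for the pooled value of the optimal list and as circles and squares for the relaxed lists of replicates 1 and 2, which were processed separately. The Dppa2 region 210 bp upstream, at 32.2 and 47.2, stands above the other regions in both replicates, and the Dppa5a region has no value in replicate 2.

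By the strongest region within 50 kb, the order of the genes was Dppa2 with Dppa4 (79.7, shared), Lin28a (33.4), Sox2 (32.0), Pou5f1 (30.2), Utf1 (25.6), Sall4 (20.5) and Dppa5a (13.1). From Lin28a down to Sall4, each neighbouring pair of genes had opposite orders in the 2 replicates, so this part of the order was not shared by them. Dppa5a was below Sall4 in replicate 1, at 6.66 against 15.0. In replicate 2 it had no overlapping region, where Sall4 had 6.38. The shared Dppa2 and Dppa4 region was higher than the strongest regions of the other genes in both replicates. Replicate 2 was higher than replicate 1 in 8 of the 15 regions with both values, against 55% of all optimal regions with both. Replicate 1 was higher in 7, on scales that were not matched. The Dppa2 regions 317 and 713 bp downstream share 1 value of replicate 1.

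Few of the regions were in the thresholded lists of both replicates. Only 2 of the 16 regions overlapped both lists, against 35.4% of the optimal list, and 9 were in neither, against 38.2%. Replicate 1 listed 3 of the 16, against 44.3% of the optimal list, and replicate 2 listed 6, against 52.9%. The thresholded lists come from the second processing run and the optimal list from the first, so this comparison crosses both runs. In the relaxed lists 15 of 16 overlapped both replicates, against 97.8% of the optimal list. The conservative list held 11 of the 16, against 81.8%, and the second run's list 11 of the 16, against 83.6%. The median signal of the 16 was also below that of the whole list, and its part in these counts was not tested.

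A composite element, ARE core or MAF core stood within 50 bp of the summit in 7 of the 16 regions, against 79.1% of all optimal regions, and 9 had none. The composite element was in 2 regions, against 28.2% of all optimal regions. An ARE core was in 4, against 60.3%, and a MAF core in 5, against 62.8%. In the 13898 optimal regions with signal in the range of the 16, the shares were 26.3% for the composite element, 59.5% for the ARE core and 62.5% for the MAF core. In the 11986 optimal regions within 50 kb of a protein-coding TSS they were 27.1%, 59.2% and 59.5%. The shares near these genes were below both, with only 16 regions counted and 4 of the 7 matches at Dppa2. In windows of the same width 1000 bp to either side, none of the 16 regions had a composite element, ARE core or MAF core. Over all optimal regions those windows held a composite element in 0.101% on the left and 0.0772% on the right, an ARE core in 7.35% and 6.94%, and a MAF core in 7.26% and 7.32%. An AP-1 site stood in the left window of 2 of the 16, against 1.89% of all optimal regions, and in the right window of 0, against 1.72%.

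Some matches lay just outside the searched window or in repeats. The region 713 bp downstream of Dppa2 has a composite element from -51 to -42, of which the window holds all but the outermost base, and the Utf1 region has one from -66 to -57. With the whole region searched, 148 bp to either side of the summit, 4 of the 16 held a composite element, which is 25% of them against 29.6% of all optimal regions. At this width the share of the composite element near the genes was close to that of the list. An ARE core was in 6 of the 16 at this width, against 60.3% of all optimal regions within 50 bp of the summit. The share of the ARE core over all optimal regions at 148 bp was not computed. Repeats covered over 50% of the window in 3 regions, against 12% of optimal regions. These were the Sall4 regions at 13037 bp downstream (62.4%) and at 11257 bp upstream (73.3%), and the Utf1 region (72.3%). Reads from repeats can map to more than 1 place, and how the authors treated them is not given in the sources used here.

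Sites of pluripotency factors were counted in the same windows. The octamer ATGCAAAT, a site of OCT4 and related POU factors, was in 1 region, 713 bp downstream of Dppa2 from -25 to -18, which is 6.25% of the 16 against 1.11% of all optimal regions and rests on that 1 match. The joint SOX-OCT element with up to 2 mismatches and the ESRRB site TCAAGGTCA were in 0 of 16, against 0.428% and 0.398%, shares at which 16 regions are too few to show a difference. The shuffled control GTTCAG was in 1 of 16, against 5.67%. In the RefSeq promoter sequences of GRCm38, which cover 250 bases before and 50 after a start, 4 of the 8 genes were matched. Promoters of Sall4, Dppa2, Dppa4 and Dppa5a were not matched and so not searched. The ARE core in the window 210 bp upstream of Dppa2 is therefore not part of the promoter counts. The 4 matched genes had 5 promoter sequences. A MAF core stood in 2 of the 5, at Pou5f1 and Sox2, against 19.5% of all promoters. An ARE core stood in 0 of the 5, against 27.8%, and a composite element in 0, against 0.289%.

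**Figure D4:**
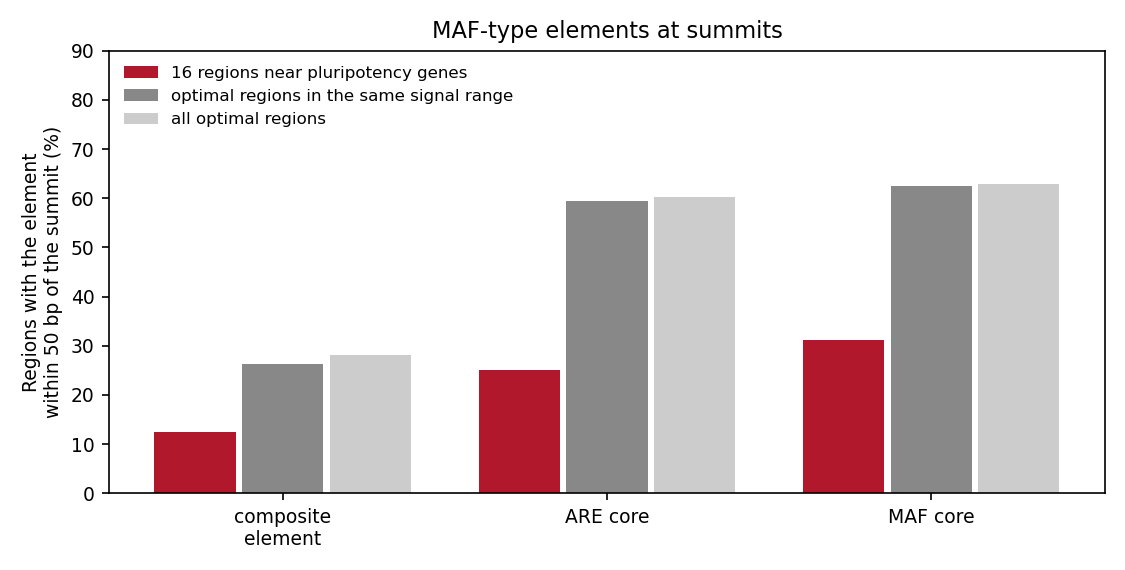
Percent of the 16 regions (red), of the optimal regions in the same signal range (dark grey) and of all optimal regions (light grey) with a composite element, ARE core or MAF core within 50 bp of the summit (vertical axis, from 0). The composite element is in 12.5% of the 16 regions, in 26.3% of those in the same signal range and in 28.2% of all.

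A wider list of 24 pluripotency genes, chosen with earlier results of these data known, was set beside the 8. Of these, 19 had a region within 50 kb, against 59.3% of protein-coding genes, and 13 within 10 kb, against 26.9%. Some of the 24 genes had an identical strongest signal within 50 kb, so these counts may not be independent. The 4 with the highest signal within 10 kb were Tfcp2l1 at 252.9, Fgf4 at 133.2, Esrrb at 87.8 and L1td1 at 83.1. These 4 were picked for their signal and lay above the strongest region of the 8 genes, at 79.7 for Dppa2. The other 9 with a region within 10 kb lay below it, from 17.1 to 51.8, and 11 had none.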

How the data were processed

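Regions on mm10 are lists the authors deposited. Per the deposited text notes, a first run made a relaxed list per replicate and a pooled one, and selected an optimal and a conservative list from them by irreproducible discovery rate (IDR). A second run, from other alignments, gave the replicates' thresholded lists and a list of both. Which aligner, peak caller and filters made them is not given in the sources used here. The deposited signal is a score of unstated scale.

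Genes came from GENCODE vM21 and sequences from the RefSeq GRCm38 reference, the assembly of mm10. Overlap meant at least 1 bp shared, and elements were searched within 50 bp of summits on both strands. The calculations used Python 3.11.15, NumPy 2.4.6, pandas 2.3.3, pysam 0.24.0 and matplotlib 3.10.9 and were tested on simulated data. With 1 group no test was run. The 8 genes and the lists were chosen with earlier results of these data known. All 8 genes and their regions are named, and of the wider list at most 4. Other distances, lists, windows and single replicates were tried as alternatives, and coordinates are 1-based.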

Additional observations from a re-analysis of the deposited data

How the results depend on the processing

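Over 7 results, 54 alternatives were computed, of which 14 left the value equal. Another 20 moved it by no more than 1.5 times for a count, or by less than 1 SD for the median signal. Examples were 11 regions at an IDR of 0.01, an ARE core in 6 with 100 bp to either side and a composite element in 3 with 1 mismatch. The SD was that of the medians from the 2 replicates' thresholded lists, 12.5 over 3 regions and 20.7 over 6 other or shared regions. These medians are also among the alternatives that the SD was used to judge. Within 10 kb there were 9 regions at 5 genes, with a composite element in 0 and an ARE core in 2. Within 100 kb there were 26 regions, with a composite element in 5 and an ARE core in 10. The composite element was in 1 region with the conservative list and in 1 at an IDR of 0.01. With windows of 100 bp to either side it was in 4, and in 4 with 148 bp, a window added after the data had been seen. Of these settings, an element share over all optimal regions was computed only for the composite element at 148 bp. The other element counts therefore do not show a change relative to the list. With the relaxed lists in place of the thresholded ones, 15 regions overlapped both replicates. The thresholded list of 1 replicate alone gave 3 to 6 regions, 3 to 5 genes within 50 kb, 2 to 4 genes within 10 kb, a median signal of 12.5 to 20.7, a composite element in 0 to 2 regions and an ARE core in 1 to 3. The lowest values came from leaving out replicate 2. These single lists come from the second run, so replicate, run and list change together. The cause of the moves was not tested. Depth is unknown, so a region missing from a list may lie under its threshold.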

Other observations

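Between 50 and 150 kb from the start sites, Sox2 had 9 further regions, which made 12 within 150 kb. As many were found for 1.41% of protein-coding genes, a count singled out after it was seen. Among the 9, the regions at chr3:34554407-34554702 and chr3:34554614-34554909 overlap and have the same strongest relaxed signal in each replicate. Their replicate values therefore do not tell them apart as separate sites. The strongest of these lay 124427 bp upstream, with a pooled signal of 75.3 and with 46.6 in replicate 1 and 26.8 in replicate 2. Another lay 84752 bp downstream, with a pooled signal of 68.5 and with 39.7 in replicate 1 and 29.2 in replicate 2. Both held a composite element and both exceeded every Sox2 region within 50 kb. A group of 4 regions lay between 107558 and 115127 bp downstream, with pooled signals of 17.0 to 36.6 and no composite element. A distal control region downstream of Sox2 is known in mouse embryonic stem cells, and its position was not mapped here.

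Near Dppa5a, regions 135217 and 140418 bp upstream had pooled signals of 96.2 and 61.5, and the nearest protein-coding gene to both was Eef1a1, a translation elongation factor. Of the regions beyond 50 kb of Dppa2, 3 lay nearest Morc1, a germ cell gene, with pooled signals of 31.4, 24.8 and 17.2. These genes were named after their values were seen.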
